A study of Mus musculus with 14 samples.

Results

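RNA-seq of the knockdown-control mouse embryonic stem cells (KD_control, 2 libraries) was compared with that of the stem cells the same study labels mESC (2 libraries). The labels call both groups wild-type, untreated stem cells of a home-made line, and neither group carries a named allele or agent. They do not say what the knockdown control received. Both were kept on inactivated feeder fibroblasts in medium with 20% knockout serum replacement and 1000 units per mL of leukaemia inhibitory factor (LIF), and were passaged on gelatin before harvest. The series holds 14 samples in 7 groups, among them stem cells with a knockdown of the RNA-binding protein gene Dppa5a (Dppa5a_KD), for which KD_control is the control, and embryonic fibroblasts (MEF). Nothing in the labels ties the replicates to separate cultures, so p-values measure the spread between these libraries, which may be technical. The labels name no batch, and a difference in culture, date or library preparation between the groups cannot be told apart from the groups themselves.

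The genes compared were those on autosomes with a mean of 1 FPKM or more (fragments per kilobase of transcript, scaled to the fragments sequenced) in either group, 12135 of the 24346 gene symbols in the tables. Genes of chromosomes X and Y were left out. Differences are given as log2 fold changes, KD_control minus mESC, on the scale log2(FPKM + 1), which understates the change of genes with low values. A gene was called changed at a limma adjusted p under 0.05.

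Mouse embryonic stem cells are kept in the naive, pre-implantation-like state by LIF and a small circuit of transcription factors, and they drift readily towards primitive endoderm or towards the formative state that precedes differentiation. Their transcriptome also follows culture: amino-acid shortage acts through the transcription factor ATF4 in the integrated stress response, low oxygen acts through hypoxia-inducible factors on glycolysis genes, and long culture is known to alter imprinted genes.

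All 4 libraries carried the defining markers of pluripotent cells. The summed level of the 6 markers was 1999 and 2074 FPKM in KD_control, against 1598 and 2176 FPKM in mESC. Feeder fibroblasts would bring collagen transcripts, and these were near 0: Col1a1 was at 0.775 and 0.771 FPKM in KD_control, against 0.313 and 0.599 FPKM in mESC, while MEF had 2894 and 2226 FPKM. The 8 fibroblast markers summed to 16.0 and 16.8 FPKM in KD_control, against 2.18 and 5.92 FPKM in mESC, nearly all of it from Thy1 and Pdgfrb, and 6 of the 8 were under 1 FPKM in all 4 libraries. Blood and endothelial markers summed to at most 2.11 FPKM in any of the 4.

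The 2 KD_control libraries were much closer to each other than the 2 mESC libraries were. Across the 23241 autosomal symbols, which are not independent replicates, Pearson's r on the log2 scale was 0.998 within KD_control and 0.981 within mESC. These include the symbols below the level needed for testing. Over the genes tested, the median absolute difference between replicates was 0.06 on the log2 scale in KD_control and 0.36 in mESC. Between the groups, KD_control libraries correlated with mESC replicate 1 at 0.934 and with mESC replicate 2 at 0.961, so mESC replicate 2 lay closer to KD_control. Both KD_control libraries correlated with the Dppa5a_KD libraries at 0.974 to 0.982. The number of reads is unknown here; the deposited confidence bounds around a locus over 5 FPKM had a median half-width of 5.43% and 5.39% of the value in KD_control, and of 5.92% and 5.27% in mESC.

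Of the 12135 genes, 5013 (41.3%) were called: 3251 (26.8%) were higher and 1762 (14.5%) lower in KD_control. At an unadjusted p under 0.05 there were 6552 (54%). The groups did not overlap for 9679 genes (79.8%): KD_control was above mESC in 48.3% of genes and below it in 31.4%. Non-overlap, given for many genes below, was thus the rule and is not particular to them. A change beyond 1.5-fold was called for 1127 genes (9.29%), 831 higher (6.85%) and 296 lower (2.44%). The median of all genes was 0.21 on the log2 scale with the FPKM as deposited and -0.02 after median-ratio scaling of the libraries. Of the calls, 64.9% were in the higher direction with the deposited values and 51.7% after that scaling. List medians are therefore read against 0.21, and list counts against 26.8% higher and 14.5% lower. With mESC replicate 1 left out 9737 genes were called, with mESC replicate 2 left out 10488, and with KD_control replicate 1 or 2 left out 2021 or 2031. The spread is then estimated from 1 pair alone, tight in KD_control and wide in mESC.

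**Figure D1:**
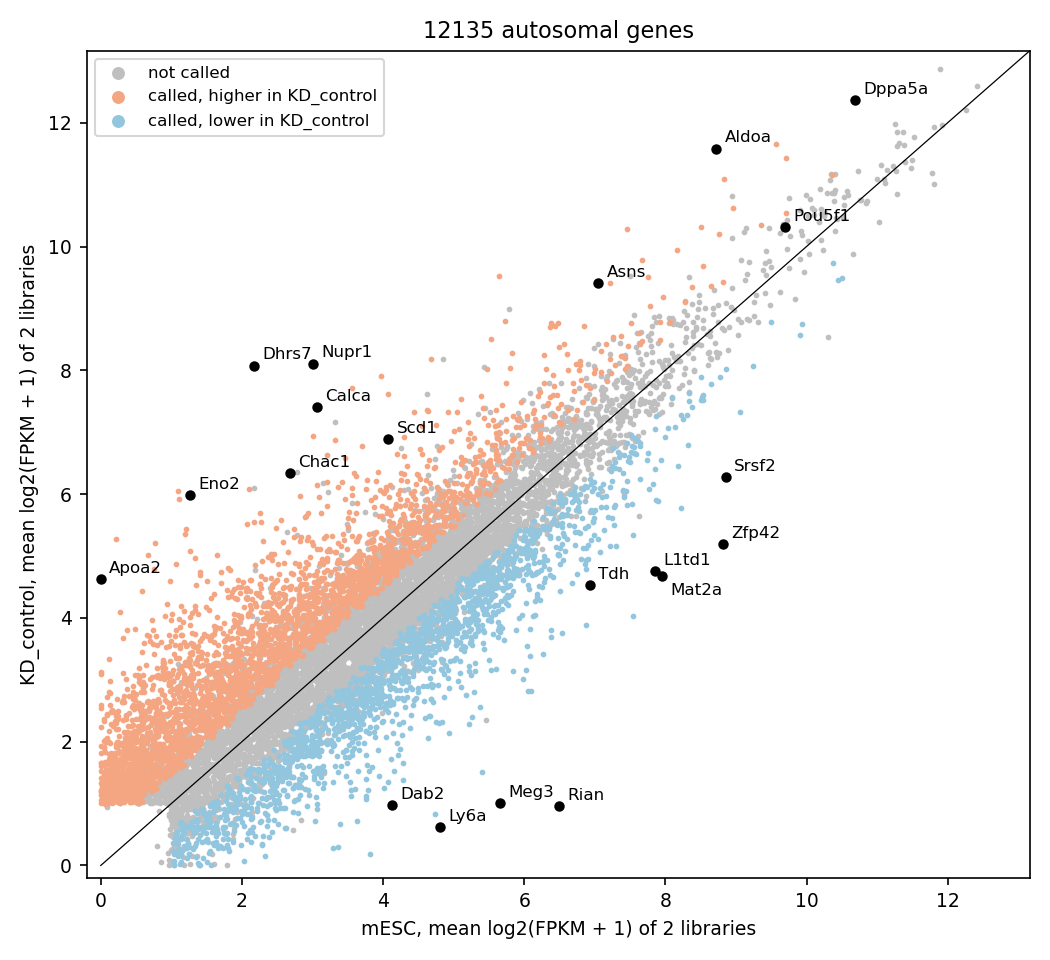
Mean log2(FPKM + 1) of the 2 KD_control libraries against that of the 2 mESC libraries for the 12135 autosomal genes tested; the line marks equal levels and labelled genes are described in the text. Nupr1, Dhrs7 and Eno2 lie far above the line and Rian, Meg3 and Ly6a far below it, while Pou5f1 lies near it.

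Genes of the integrated stress response and of amino-acid supply were the list furthest above the other genes. Of 29 members tested, 23 were higher in KD_control and 0 lower (limma; at an unadjusted p under 0.05 the counts were 25 and 0). The median log2 fold change was 2.11, against 0.21 over all genes, and it was 2.35 against mESC replicate 1 and 1.87 against mESC replicate 2. A change beyond 1.5-fold was called for 17 of them. The number higher was 18 without KD_control replicate 1, 17 without KD_control replicate 2, 27 without mESC replicate 1 and 29 without mESC replicate 2.

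Nupr1, a small stress-induced chromatin protein (chr7:126623246-126625470, mm10), had 263 and 288 FPKM in KD_control, against 3.53 and 13.3 FPKM in mESC (log2 fold change 5.10, SE 0.58, adjusted p = 0.00943). Chac1, an enzyme that breaks down glutathione (chr2:119351242-119354327), had 78.2 and 82.0 FPKM in KD_control, against 3.94 and 7.35 FPKM in mESC (log2 fold change 3.66, SE 0.29, adjusted p = 0.0074). Ddit3, which encodes the stress transcription factor CHOP (chr10:127290793-127296288), had 115 and 116 FPKM in KD_control, against 4.73 and 16.5 FPKM in mESC (log2 fold change 3.54, SE 0.57, adjusted p = 0.0154). In each of these genes both KD_control libraries lay above both mESC libraries, and mESC replicate 2 was the higher of the mESC pair. The serine synthesis enzymes moved the same way. Phgdh, the first of them, had 364 and 361 FPKM in KD_control, against 35.3 and 57.5 FPKM in mESC (log2 fold change 2.98). Psph, the last, had 161 and 162 FPKM in KD_control, against 27.8 and 20.6 FPKM in mESC (log2 fold change 2.70). Asns, which makes asparagine, had 671 and 689 FPKM in KD_control, against 132 and 131 FPKM in mESC (log2 fold change 2.36, SE 0.15, adjusted p = 0.0074), with almost no spread in either group. Atf4 itself rose less, with 279 and 289 FPKM in KD_control, against 112 and 108 FPKM in mESC (log2 fold change 1.36, SE 0.14, adjusted p = 0.00887), and its adjusted p was 0.0692 without KD_control replicate 1 and 0.0804 without KD_control replicate 2. The hormone gene Fgf21 had 6.89 and 8.24 FPKM in KD_control against 0 and 0 FPKM in mESC and was thus listed at 0 in both mESC libraries (adjusted p = 0.0074). Cth, which makes cysteine, and Pck2, a mitochondrial enzyme of gluconeogenesis, are known ATF4 targets outside the list; they were at 237 and 240.2 FPKM in KD_control against 16.7 and 12.9 FPKM in mESC and 123 and 119.8 FPKM in KD_control against 7.15 and 7.01 FPKM in mESC.

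Members that were not called were Atf5 and Sesn2, with log2 fold changes of 0.51 and 0.29, Cebpb and Cebpg, with 0.80 and 0.55, Ppp1r15a, which encodes the phosphatase subunit that ends the response, and Eif4ebp1. Ppp1r15a had 18.0 and 18.6 FPKM in KD_control, against 7.64 and 19.4 FPKM in mESC, so the groups overlapped. Eif4ebp1, a brake on translation, had 470.2 and 469 FPKM in KD_control, against 127 and 450.1 FPKM in mESC. The chaperones of the unfolded protein response, the endoplasmic reticulum's own stress pathway, were at the level of other genes: 4 of 20 were higher and 1 lower, with a median of 0.18.

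ATF4 and its partners bind a composite element that can be written TGATGNAA. Within the 250 bases before the annotated start, on either strand, it stood in 9 of the 26 tested list members with a promoter in the RefSeq table (34.6%), in 221 of the 9185 tested genes with one (2.41%), and in 3.45% of all 32851 promoters of that length. The 9 were Atf3, Chac1, Asns, Pycr1, Vldlr, Fgf21, Aars, Gars and Nupr1. The list gathers genes already tied to this response, so a share above that of all genes does not bear on these libraries. None of the 24 hypoxia genes or the 22 glycolysis genes with a promoter held it. The promoters of 4 genes with large differences are shown because they carry it; sequences are from RefSeq (GRCm38.p6), 5′ to 3′ on the strand of the gene, and capitals mark the match, which is a description of letters and no measure of binding.
Nupr1 promoter, chr7:126625471-126625720, minus strand: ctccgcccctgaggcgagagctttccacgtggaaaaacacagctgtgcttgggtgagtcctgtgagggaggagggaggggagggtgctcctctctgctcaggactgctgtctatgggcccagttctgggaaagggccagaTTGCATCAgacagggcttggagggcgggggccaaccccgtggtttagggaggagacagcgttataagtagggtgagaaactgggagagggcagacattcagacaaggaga
Chac1 promoter, chr2:119350992-119351241, plus strand: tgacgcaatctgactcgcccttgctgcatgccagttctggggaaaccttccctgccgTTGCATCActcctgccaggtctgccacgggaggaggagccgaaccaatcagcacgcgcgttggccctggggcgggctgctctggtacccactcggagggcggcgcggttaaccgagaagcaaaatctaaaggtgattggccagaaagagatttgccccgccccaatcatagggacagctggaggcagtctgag
Asns promoter, chr6:7693210-7693459, minus strand: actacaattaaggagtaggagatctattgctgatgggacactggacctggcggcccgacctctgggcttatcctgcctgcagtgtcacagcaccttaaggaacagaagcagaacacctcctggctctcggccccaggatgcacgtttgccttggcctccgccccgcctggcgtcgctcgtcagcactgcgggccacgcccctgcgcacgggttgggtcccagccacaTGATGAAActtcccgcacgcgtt
Fgf21 promoter, chr7:45615491-45615740, minus strand: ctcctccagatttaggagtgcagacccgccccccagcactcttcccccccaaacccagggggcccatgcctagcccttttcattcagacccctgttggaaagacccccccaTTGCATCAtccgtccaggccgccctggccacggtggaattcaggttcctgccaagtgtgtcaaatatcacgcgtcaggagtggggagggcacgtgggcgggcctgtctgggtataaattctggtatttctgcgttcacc
Counted back from the start, the match began at -110 in Nupr1, -193 in Chac1, -23 in Asns and -139 in Fgf21.

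**Figure D2:**
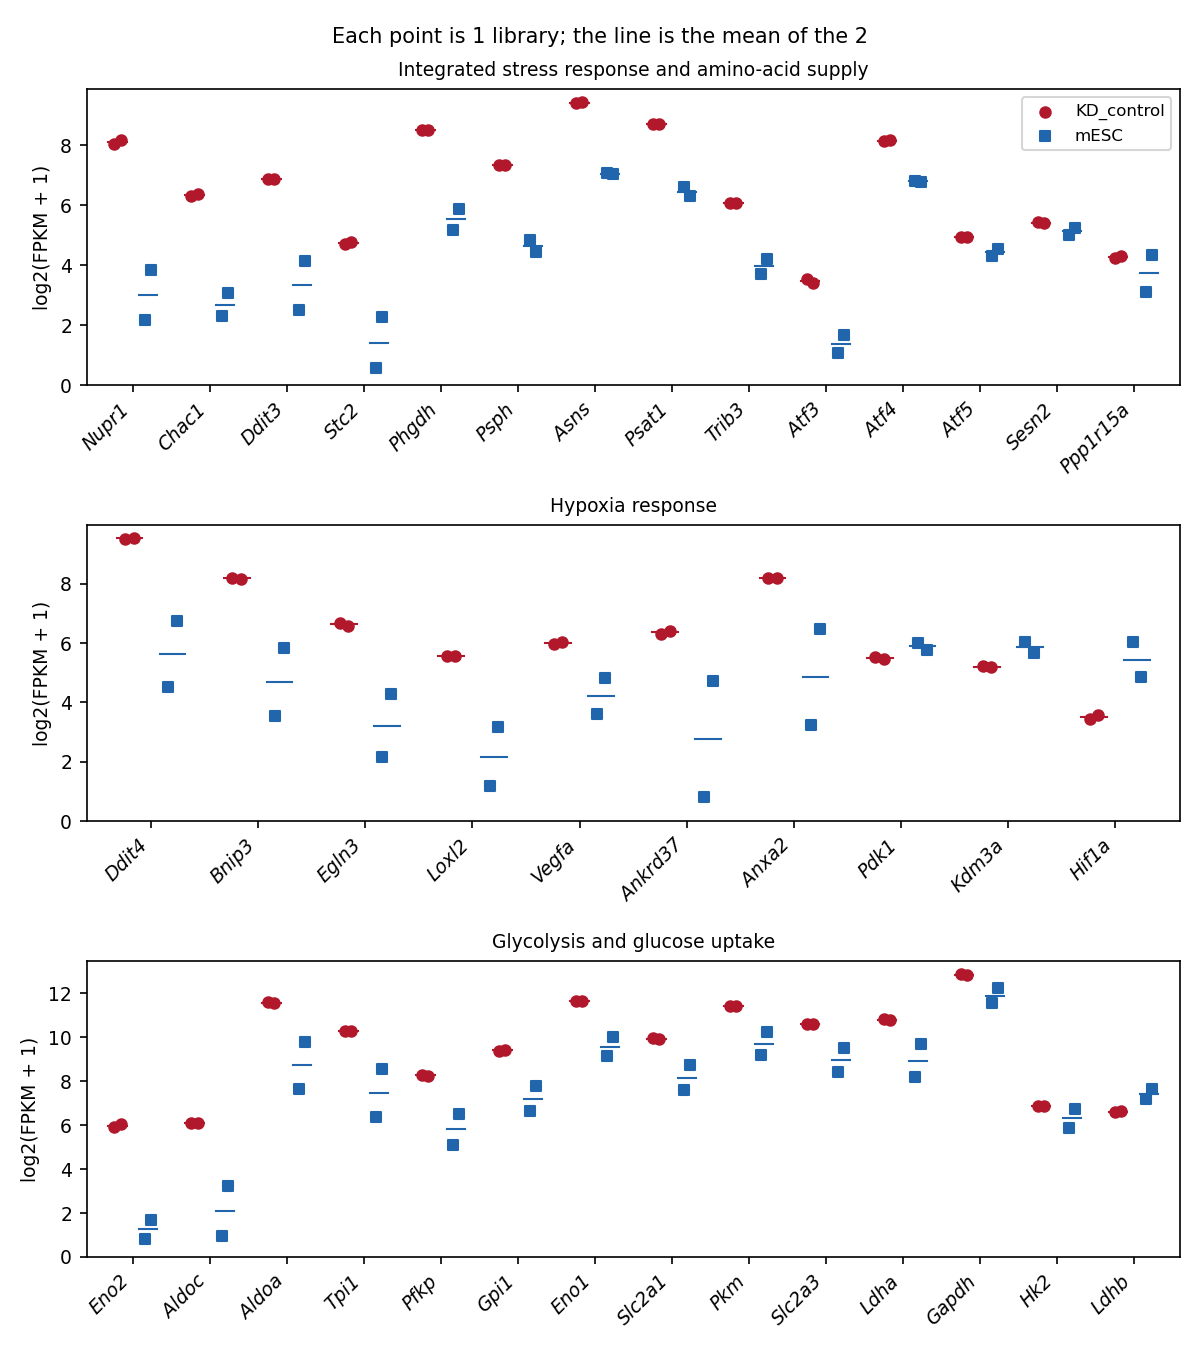
Level of list members in each library, as log2(FPKM + 1), KD_control (circles) left of mESC (squares); each point is 1 library and the bar is the mean of the 2. Asns and Atf4 separate the groups with little spread, while Bnip3, Aldoa and Ankrd37 are low in mESC replicate 1, intermediate in mESC replicate 2 and high in both KD_control libraries.

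Hypoxia-response genes were higher in KD_control too, but their size rested on which mESC library they were set against. Of 31 tested, 16 were higher and 2 lower. The median was 1.60 against the mESC mean, 2.37 against mESC replicate 1 and 0.88 against mESC replicate 2. In 24 of the 31 the order was KD_control, then mESC replicate 2, then mESC replicate 1, an order that 36.2% of all tested genes showed. A change beyond 1.5-fold was called for only 1 of the 31, higher in KD_control, beside 6.85% of all genes.

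Bnip3, which drives the removal of mitochondria, had 291 and 288 FPKM in KD_control, against 10.7 and 55.4 FPKM in mESC (log2 fold change 3.50, SE 0.79, adjusted p = 0.0308). Egln3, the prolyl hydroxylase induced by the factor it degrades, had 101 and 94.8 FPKM in KD_control, against 3.44 and 18.3 FPKM in mESC (log2 fold change 3.42, SE 0.74, adjusted p = 0.0281). The angiogenic factor Vegfa had 61.2 and 65.1 FPKM in KD_control, against 11.1 and 27.4 FPKM in mESC (log2 fold change 1.79, SE 0.44, adjusted p = 0.0379). In all 3 the KD_control libraries lay above both mESC libraries, and mESC replicate 1 was the lower of its pair. Ddit4, which restrains mTORC1 and is also a target of p53 and ATF4, had 729 and 747 FPKM in KD_control, against 22.1 and 107 FPKM in mESC (log2 fold change 3.89, SE 0.77, adjusted p = 0.0237). Ankrd37 and Anxa2 did not reach the threshold despite fold changes of 3.58 and 3.33: Ankrd37 had 77.8 and 84.4 FPKM in KD_control, against 0.769 and 25.6 FPKM in mESC (adjusted p = 0.0961). The oxygen-sensing factor Hif1a went the other way at the transcript level, with 9.73 and 10.9 FPKM in KD_control, against 63.9 and 27.6 FPKM in mESC (log2 fold change -1.93, SE 0.43, adjusted p = 0.0298). Pdk1 and Kdm3a, both regular hypoxia targets, had log2 fold changes of -0.39 and -0.66 and were not called.

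Of 23 glycolysis and glucose-uptake genes, 12 were higher and 1 was lower, with a median of 1.78; it was 2.40 against mESC replicate 1 and 1.19 against mESC replicate 2. A change beyond 1.5-fold was called for only 1 of the 23, higher in KD_control, beside 6.85% of all genes. The number higher was 9 without KD_control replicate 1, 9 without KD_control replicate 2, 19 without mESC replicate 1 and 20 without mESC replicate 2. Eno2, the neuronal enolase, separated the groups most, with 59.2 and 65.7 FPKM in KD_control, against 0.780 and 2.24 FPKM in mESC (log2 fold change 4.72, SE 0.33, adjusted p = 0.0074). Aldoc, the brain aldolase, had 66.8 and 66.7 FPKM in KD_control, against 0.929 and 8.52 FPKM in mESC (log2 fold change 3.98, SE 0.80, adjusted p = 0.0242). The main aldolase Aldoa, among the most abundant messages of the cells, had 3123 and 3013 FPKM in KD_control, against 198 and 894 FPKM in mESC (log2 fold change 2.86, SE 0.76, adjusted p = 0.045); the call ended with a pseudocount of 0.1, with a minimum of 5 FPKM and with no minimum. Both KD_control libraries exceeded both mESC libraries in these enzymes, as in 48.3% of all genes. The glucose transporter Slc2a3 had 1573 and 1569 FPKM in KD_control, against 339 and 725 FPKM in mESC (log2 fold change 1.66, SE 0.41, adjusted p = 0.0384), and its adjusted p was 0.101 without KD_control replicate 1 and 0.101 without KD_control replicate 2; for the abundant enolase Eno1 (3266 and 3187 FPKM in KD_control against 560.0 and 1029.5 FPKM in mESC, log2 fold change 2.09) it was 0.0602 without KD_control replicate 1 and 0.0551 without KD_control replicate 2. Ldha, which turns pyruvate into lactate, had 1807 and 1792 FPKM in KD_control, against 290.1 and 833 FPKM in mESC and just missed the threshold (adjusted p = 0.0557). By contrast Ldhb, the subunit of the reverse reaction, was lower at 97.3 and 98.0 FPKM in KD_control against 145 and 198 FPKM in mESC (log2 fold change -0.79, SE 0.21, adjusted p = 0.0432; adjusted p 0.334 without KD_control replicate 1 and 0.33 without KD_control replicate 2). Gapdh and Hk2 were not called, with log2 fold changes of 0.98 and 0.56. For the 73 nuclear genes of oxidative phosphorylation the median was 0.60 (12 higher, 2 lower), but it was 0.21 against mESC replicate 2, near the all-gene median of 0.12 in that setting, and no change beyond 1.5-fold was called. The balance turned with the setting: 5 were higher and 3 lower after median-ratio scaling, and 4 higher and 8 lower with the length trend removed. Without either KD_control library limma called none, while 21 were higher and 2 lower at an unadjusted p under 0.05 with all 4 libraries. Against mESC replicate 1 the median of these 73 genes was 0.81, where that of all genes was 0.30.

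Hypoxia-inducible factors bind the core ACGTG. It stood in the same window, on either strand, in 14 of 24 hypoxia genes with a promoter (58.3%) and 10 of 22 glycolysis genes (45.5%), against 2340 of the 9185 tested genes (25.5%) and 16.6% of all promoters; 8 of the 26 stress-response genes (30.8%) held it. It overlapped a TGATGNAA match in 1 promoter of a tested gene. The hypoxia and glycolysis lists were likewise put together from known genes, so their shares do not bear on these libraries either. The window of Vegfa, 1 of the 14 (chr17:46025164-46025413), reads as coding sequence of the gene around the match, so that match is no promoter match. The 14 also held Hif1a, called lower, and Ankrd37 and Anxa2, not called. Ldha and Hk2, not called, were among the 10. The promoters of Bnip3 and Egln3 are shown because both genes were called; the Bnip3 match reads the same on both strands and so counts on each.
Bnip3 promoter, chr7:138909507-138909756, minus strand: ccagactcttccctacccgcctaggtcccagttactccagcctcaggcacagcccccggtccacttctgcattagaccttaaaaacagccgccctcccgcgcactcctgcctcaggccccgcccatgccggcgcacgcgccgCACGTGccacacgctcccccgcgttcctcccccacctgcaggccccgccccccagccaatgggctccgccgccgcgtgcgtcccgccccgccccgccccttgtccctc
Egln3 promoter, chr12:54203875-54204124, minus strand: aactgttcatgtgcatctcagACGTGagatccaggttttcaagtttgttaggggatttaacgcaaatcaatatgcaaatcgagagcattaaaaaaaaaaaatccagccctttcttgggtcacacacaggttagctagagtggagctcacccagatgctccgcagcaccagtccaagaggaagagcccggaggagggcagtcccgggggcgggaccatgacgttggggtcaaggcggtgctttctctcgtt
The first matched base lay at -108 in Bnip3 and at -229 in Egln3.

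Many lipid synthesis genes were higher. Of 30 genes of cholesterol and fatty acid synthesis, 16 were higher and 1 was lower, with a median of 0.80. The number higher was 7 without KD_control replicate 1, 7 without KD_control replicate 2, 22 without mESC replicate 1 and 23 without mESC replicate 2. Scd1, the desaturase that makes oleate, had 116 and 118 FPKM in KD_control, against 12.9 and 19.4 FPKM in mESC (log2 fold change 2.81, SE 0.23, adjusted p = 0.00747). Cyp51, an enzyme of cholesterol synthesis, had 114 and 115 FPKM in KD_control, against 29.6 and 30.9 FPKM in mESC (log2 fold change 1.89, SE 0.13, adjusted p = 0.0074). All 4 libraries separated by group in these genes, as in 79.8% of all genes tested. Fasn, which makes palmitate, was the exception, at 35.6 and 34.2 FPKM in KD_control against 52.9 and 63.9 FPKM in mESC (log2 fold change -0.72, SE 0.16, adjusted p = 0.0301); its adjusted p was 0.314 without KD_control replicate 1 and 0.357 without KD_control replicate 2, and with the trend in length removed it was not called.

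Several of the largest rises belonged to no list. Dhrs7, a short-chain dehydrogenase (chr12:72650353-72664828), had 270.4 and 267 FPKM in KD_control, against 1.79 and 6.32 FPKM in mESC (log2 fold change 5.90, SE 0.49, adjusted p = 0.0075). The apolipoprotein gene Apoc2 had 36.9 and 38.5 FPKM in KD_control, against 0 and 0.359 FPKM in mESC (log2 fold change 5.05, SE 0.20, adjusted p = 0.0074). Calca, the calcitonin gene, had 165 and 171 FPKM in KD_control, against 5.65 and 9.47 FPKM in mESC (log2 fold change 4.34, SE 0.26, adjusted p = 0.0074). The related peptide gene Adm2 had 29.7 and 33.1 FPKM in KD_control, against 0.163 and 1.17 FPKM in mESC (log2 fold change 4.35). Serpinf1, a secreted serpin, Cldn7, a tight-junction claudin, Fetub, a fetuin, and the transcription factor Mef2b had log2 fold changes of 4.45, 4.23, 4.16 and 4.81, and the KD_control libraries were far above the mESC libraries in each. Rnaset2a was called too (log2 fold change 4.96), but it has a near-identical copy and its value is uncertain. By level, 4 genes stood at 5 FPKM or more in both KD_control libraries and at 0.1 FPKM or less in both mESC libraries, and 0 the other way round. These were Apoa2 (24.8 and 22.8 FPKM in KD_control against 0 and 0 FPKM in mESC), Fgf21, the predicted class I gene Gm8909 and P2rx3, an ATP-gated channel (5.62 and 5.62 FPKM in KD_control against 0.0862 and 0.0326 FPKM in mESC). Dppa5a_KD had 24.2 and 27.6 FPKM of P2rx3, and 10.0 and 20.2 FPKM of Apoa2.

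**Figure D3:**
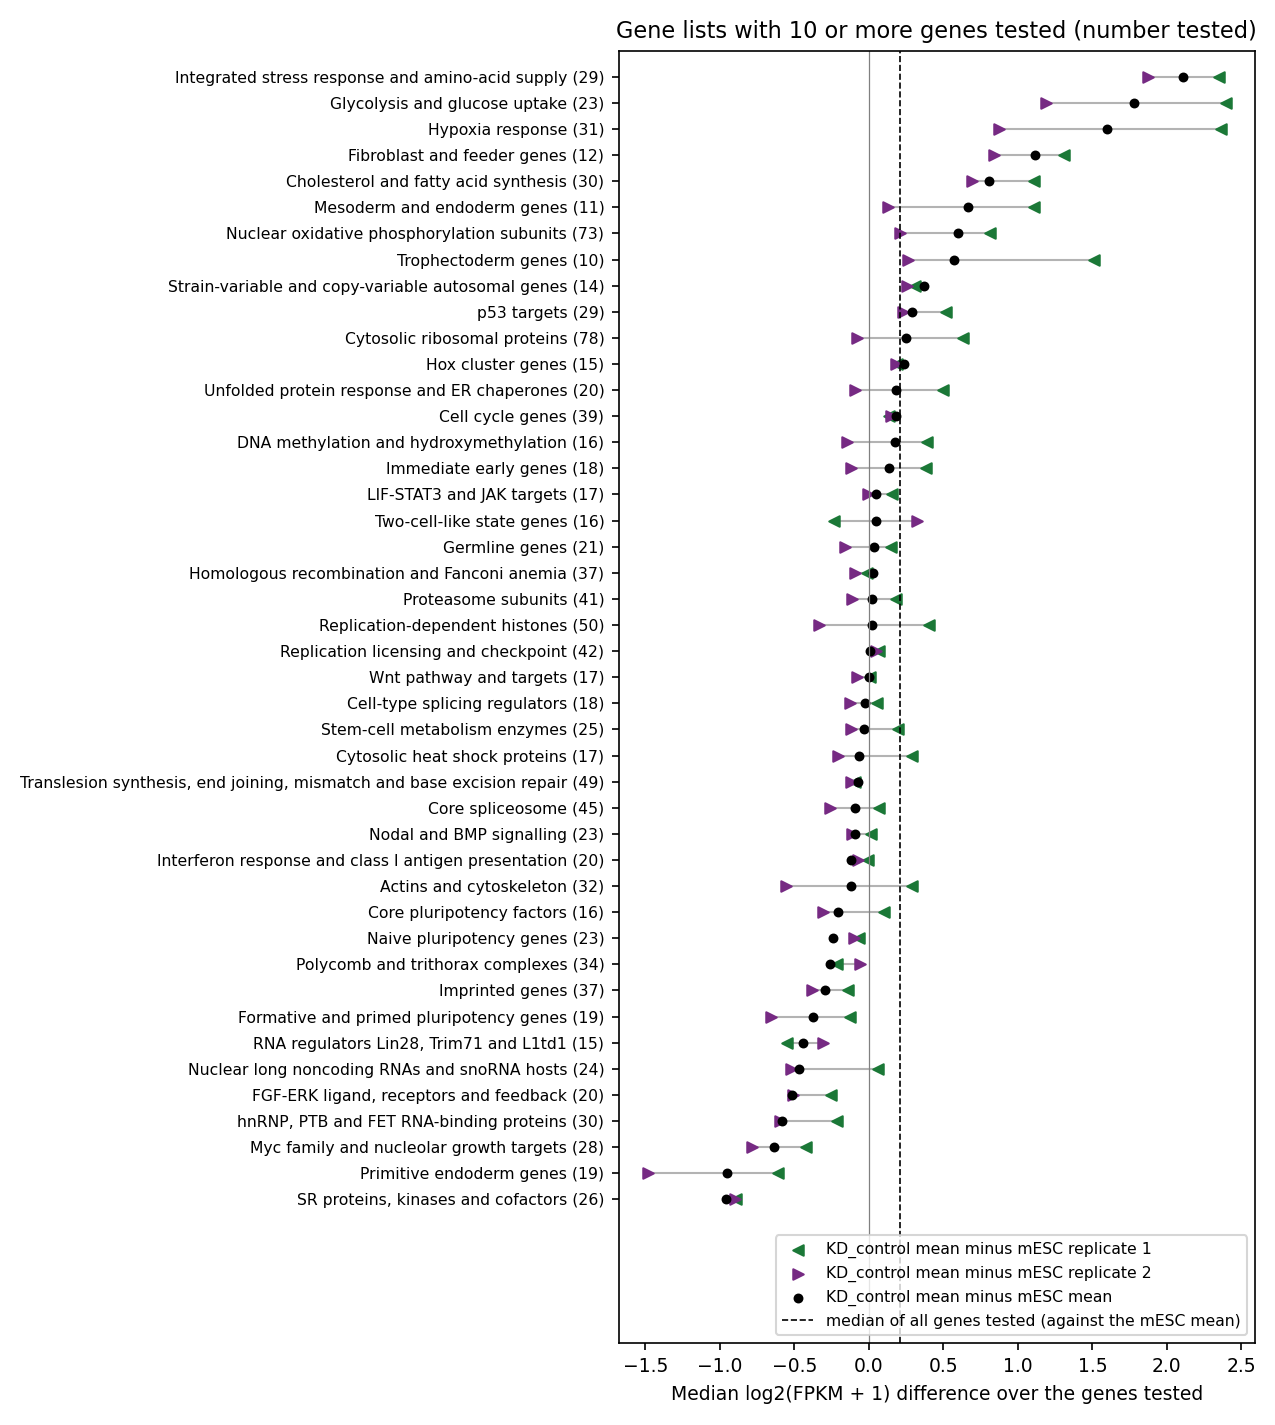
Median log2(FPKM + 1) difference over the tested members of each list with 10 or more, against the mESC mean (dots), mESC replicate 1 (left-pointing triangles) and mESC replicate 2 (right-pointing triangles); the dashed line is the median of all genes, 0.21. The stress-response, glycolysis and hypoxia lists lie furthest right and the SR protein and primitive endoderm lists furthest left.

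The pluripotency circuit was present in both groups, and with the deposited values the shares of core factors called were not far from those of all genes. Of 16 core factors tested, 3 were higher and 2 lower, with a median of -0.21, or 18.8% and 12.5% beside 26.8% and 14.5% of all genes. After median-ratio scaling, and with the length trend removed, 2 were higher and 5 lower. Over all genes the scaling gave 2499 higher and 2332 lower of 12115, and the removal gave 2766 and 2662 of 12131. The median of the core factors was 0.10 against mESC replicate 1 and -0.31 against mESC replicate 2, where those of all genes were 0.30 and 0.12. Of 23 naive genes, 5 were higher and 5 lower (21.7% each, beside 26.8% and 14.5% of all genes), with a median of -0.24. The numbers higher and lower were 1 and 3 without KD_control replicate 1, 1 and 3 without KD_control replicate 2, 10 and 11 without mESC replicate 1, and 11 and 11 without mESC replicate 2. Pou5f1, which encodes OCT4, had 1228 and 1306 FPKM in KD_control, against 682 and 1000.2 FPKM in mESC, and Sox2 had 178 and 176 FPKM in KD_control, against 102 and 219 FPKM in mESC; neither was called. The naive factor Esrrb was not called either, with 146 and 146 FPKM in KD_control, against 94.1 and 118 FPKM in mESC. Nanog was called at 360.2 and 356 FPKM in KD_control against 239.9 and 246 FPKM in mESC, a small difference (log2 fold change 0.56, SE 0.15, adjusted p = 0.0464) that the median-ratio scaling brought to 0.31 and out of the calls. Klf4, a LIF target, had 93.3 and 95.4 FPKM in KD_control, against 39.9 and 56.7 FPKM in mESC (log2 fold change 0.97, SE 0.22, adjusted p = 0.0298). Tbx3 had 53.7 and 51.7 FPKM in KD_control, against 26.8 and 34.8 FPKM in mESC (log2 fold change 0.77, SE 0.18, adjusted p = 0.0339). The adjusted p was 0.175 without KD_control replicate 1 and 0.194 without KD_control replicate 2 for Klf4, and 0.32 without KD_control replicate 1 and 0.281 without KD_control replicate 2 for Tbx3. For Nanog it was 0.559 without KD_control replicate 1 and 0.544 without KD_control replicate 2.

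Against that, Zfp42, the naive marker also known as REX1 (chr8:43295067-43307009), was far lower, with 34.3 and 36.6 FPKM in KD_control, against 406 and 502 FPKM in mESC (log2 fold change -3.64, SE 0.18, adjusted p = 0.0074). The 2 Dppa5a_KD libraries had 41.5 and 50.2 FPKM, close to KD_control. Tdh, the threonine dehydrogenase on which mouse stem cells depend, had 21.4 and 22.8 FPKM in KD_control, against 106 and 138 FPKM in mESC (log2 fold change -2.40, SE 0.19, adjusted p = 0.0074). The homeobox gene Gbx2, a LIF and FGF target, had 10.7 and 9.98 FPKM in KD_control, against 31.6 and 35.3 FPKM in mESC (log2 fold change -1.60, SE 0.14, adjusted p = 0.00772). All 3 fell with no overlap, as 31.4% of all genes did. On the higher side, Tdgf1, a co-receptor for Nodal, had 1273 and 1267 FPKM in KD_control, against 312 and 418 FPKM in mESC (log2 fold change 1.81, SE 0.22, adjusted p = 0.00998; adjusted p 0.0507 without KD_control replicate 1 and 0.0494 without KD_control replicate 2). The adhesion molecule Pecam1 had 60.2 and 58.6 FPKM in KD_control, against 14.1 and 22.6 FPKM in mESC (log2 fold change 1.68, SE 0.26, adjusted p = 0.0142).

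Dppa5a, the gene targeted in the study and a KH-domain RNA-binding protein of oocytes and stem cells, was higher in the control of its own knockdown than in mESC (log2 fold change 1.68, adjusted p = 0.0127; 0.179 without KD_control replicate 1 and 0.202 without KD_control replicate 2). Its relatives on chromosome 9 differed in direction. Ooep (chr9:78376903-78378588), the neighbour of Dppa5a (chr9:78367054-78368199), encodes a KH-domain protein of the oocyte's subcortical complex and had 135 and 137 FPKM in KD_control, against 20.7 and 24.4 FPKM in mESC (log2 fold change 2.54, SE 0.15, adjusted p = 0.0074). Khdc3 (chr9:73102398-73104443), also known as Filia and a member of the same complex, had 7.68 and 6.42 FPKM in KD_control, against 50.6 and 77.1 FPKM in mESC (log2 fold change -2.98, SE 0.25, adjusted p = 0.0076). In Ooep both KD_control libraries were above both mESC libraries, and in Khdc3 both were below.

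Of 19 formative and primed genes, 5 were higher and 5 lower (26.3% each, beside 26.8% and 14.5% of all genes). After median-ratio scaling 4 were higher and 8 lower. The numbers higher and lower were 2 and 3 without KD_control replicate 1, 2 and 2 without KD_control replicate 2, 6 and 11 without mESC replicate 1, and 8 and 8 without mESC replicate 2. Cldn6, an epithelial claudin, had 29.2 and 31.7 FPKM in KD_control, against 0.415 and 3.51 FPKM in mESC (log2 fold change 3.64, SE 0.59, adjusted p = 0.0159). The signal Nodal had 55.0 and 55.4 FPKM in KD_control, against 12.3 and 26.0 FPKM in mESC (log2 fold change 1.57, SE 0.37, adjusted p = 0.0346). The Nodal antagonists went down: Lefty2 had 2.51 and 2.37 FPKM in KD_control, against 10.6 and 14.7 FPKM in mESC (log2 fold change -1.97, SE 0.20, adjusted p = 0.00857). Otx2, which opens the formative programme, had 3.46 and 3.47 FPKM in KD_control, against 8.34 and 22 FPKM in mESC (log2 fold change -1.71, SE 0.47, adjusted p = 0.0468), a call that ended with a minimum of 5 FPKM or with none. The methyltransferase Dnmt3b had 17.0 and 18.3 FPKM in KD_control, against 32.2 and 49.8 FPKM in mESC (log2 fold change -1.14, SE 0.25, adjusted p = 0.0289; adjusted p 0.129 without KD_control replicate 1 and 0.0973 without KD_control replicate 2). Fgf5, the usual primed marker, stayed under 1 FPKM in all 4 libraries and was not tested.

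**Figure D4:**
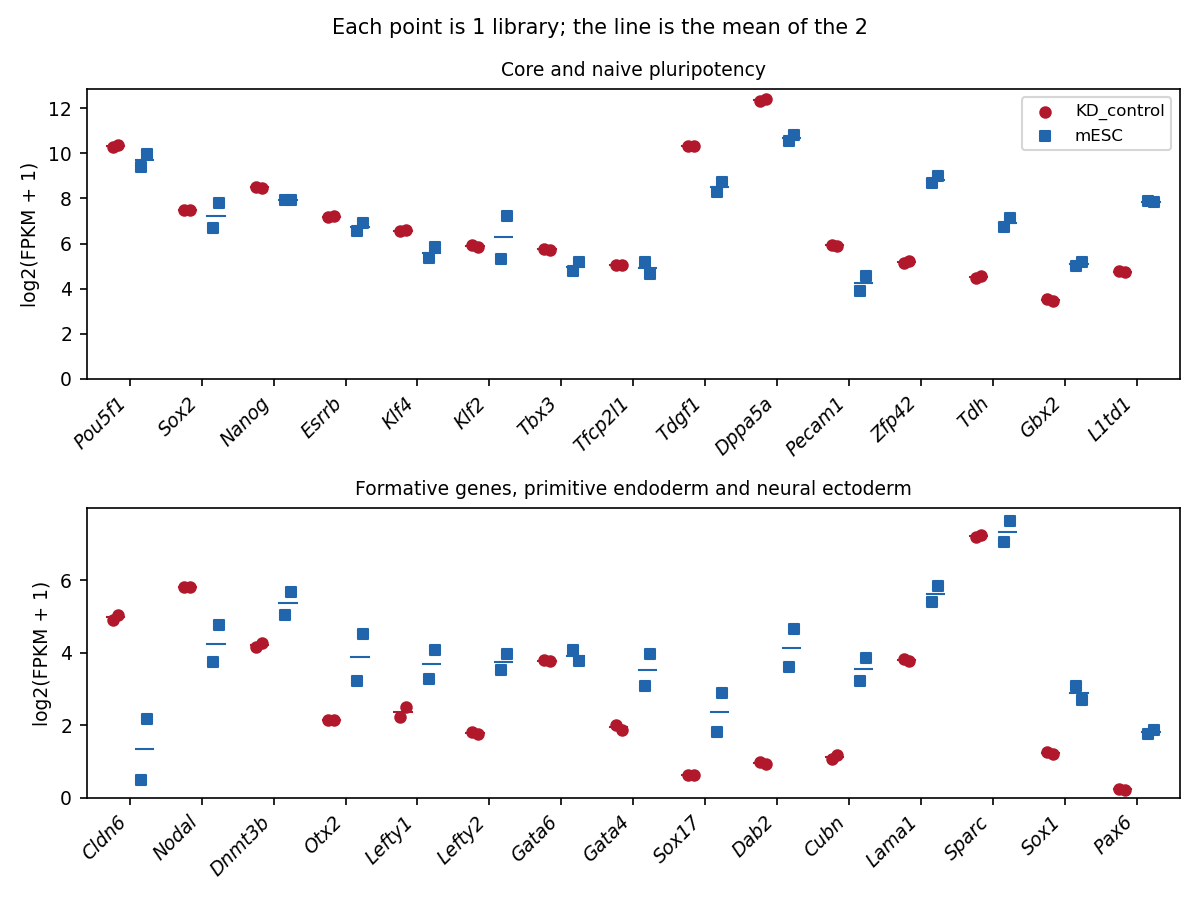
Level of pluripotency and lineage genes in each library, as log2(FPKM + 1), KD_control (circles) left of mESC (squares); each point is 1 library and the bar is the mean of the 2. Pou5f1, Sox2 and Esrrb are close in the groups, while Zfp42, L1td1, Dab2 and Cubn are lower in KD_control.

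Primitive endoderm genes, which mark the extra-embryonic cells that arise spontaneously in stem cell cultures, were lower. Of 19 tested, 11 were lower and 1 was higher, with a median of -0.95. The size depended on the mESC library, with a median of -0.61 against mESC replicate 1 and -1.48 against mESC replicate 2. Dab2, an endocytic adaptor, had 1.01 and 0.910 FPKM in KD_control, against 11.1 and 24.1 FPKM in mESC (log2 fold change -3.16, SE 0.38, adjusted p = 0.00991). Cubn, the endocytic receptor of the visceral endoderm, had 1.10 and 1.27 FPKM in KD_control, against 8.27 and 13.6 FPKM in mESC (log2 fold change -2.41, SE 0.26, adjusted p = 0.009). The laminin gene Lama1 had 13.2 and 12.7 FPKM in KD_control, against 41.2 and 56.8 FPKM in mESC (log2 fold change -1.82, SE 0.20, adjusted p = 0.00915). The transcription factor genes Sox17 and Gata4 had log2 fold changes of -1.71 and -1.57. In each of these, both KD_control libraries were below both mESC libraries, as in 31.4% of all genes. Gata6, however, had 12.9 and 12.6 FPKM in KD_control, against 15.7 and 12.6 FPKM in mESC, and Sparc had 146 and 151 FPKM in KD_control, against 132 and 196 FPKM in mESC; neither was called. The member that was higher was Serpinh1, a collagen chaperone not specific to endoderm (263 and 263 FPKM in KD_control against 34.1 and 87.8 FPKM in mESC). In bulk RNA, fewer cells of a type and less RNA per cell cannot be told apart. Of 8 neural ectoderm genes tested, 4 were lower and 1 was higher. Sox1 and Pax6, early neural transcription factor genes, were among those lower, Sox1 with 1.40 and 1.29 FPKM in KD_control, against 7.53 and 5.48 FPKM in mESC (log2 fold change -1.66) and Pax6 with 0.191 and 0.170 FPKM in KD_control, against 2.41 and 2.63 FPKM in mESC (log2 fold change -1.58). The member that was higher was the transcription factor gene Sox11, with 3.49 and 3.52 FPKM in KD_control, against 1.20 and 0.902 FPKM in mESC (log2 fold change 1.14, SE 0.14, adjusted p = 0.0105).

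Ligand, receptor and feedback genes of FGF-ERK signalling, the pathway that pushes stem cells out of the naive state, were lower in 8 of 20 and higher in 2, with a median of -0.52; the number lower was 2 without KD_control replicate 1, 3 without KD_control replicate 2, 12 without mESC replicate 1 and 10 without mESC replicate 2. The phosphatase Dusp6, an ERK target that switches ERK off, had 16.3 and 16.2 FPKM in KD_control, against 38.1 and 37.6 FPKM in mESC (log2 fold change -1.17, SE 0.13, adjusted p = 0.00908; adjusted p 0.0937 without KD_control replicate 1 and 0.0955 without KD_control replicate 2). Phlda1, another target, had 6.61 and 6.05 FPKM in KD_control, against 20.6 and 22.8 FPKM in mESC (log2 fold change -1.63, SE 0.15, adjusted p = 0.00772). The receptor Fgfr3 rose to 25.3 and 24.4 FPKM in KD_control, against 0.752 and 3.00 FPKM in mESC (log2 fold change 3.29, SE 0.43, adjusted p = 0.0109), whereas the ligand Fgf4 was not called (86.3 and 84.2 FPKM in KD_control against 60.3 and 62.1 FPKM in mESC). Of the LIF pathway's targets and components, 5 of 17 were higher and 4 lower (1 and 2 without KD_control replicate 1, the same numbers without KD_control replicate 2); its feedback inhibitors moved apart, Socs2 at 6.44 and 6.36 FPKM in KD_control against 37.6 and 29.7 FPKM in mESC (log2 fold change -2.22) and Socs3 at 147 and 148 FPKM in KD_control against 55.5 and 87.9 FPKM in mESC (log2 fold change 1.07; adjusted p 0.152 without KD_control replicate 1 and 0.158 without KD_control replicate 2).

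Among called genes of at least 10 FPKM, those with the largest falls were Rian and Meg3, maternally expressed noncoding RNAs of 1 imprinted domain. Rian (chr12:109603945-109661711) had 0.898 and 0.975 FPKM in KD_control, against 108 and 73.7 FPKM in mESC (log2 fold change -5.55, SE 0.23, adjusted p = 0.0074). Meg3 (chr12:109540996-109571729) had 0.922 and 1.09 FPKM in KD_control, against 38.7 and 63.5 FPKM in mESC (log2 fold change -4.66, SE 0.28, adjusted p = 0.0074). Mirg, the third transcript of this Dlk1-Dio3 domain on chromosome 12, had 0.278 and 0.149 FPKM in KD_control, against 6.63 and 11.6 FPKM in mESC (log2 fold change -3.02, SE 0.28, adjusted p = 0.00793). The KD_control libraries held at most 1.09 FPKM of any of them. In Dppa5a_KD the levels were 0.0960 and 0.291 FPKM of Meg3 and 0.106 and 0.308 FPKM of Rian. Other imprinted genes went either way: of 37 tested, 11 were higher and 12 lower, with a median of -0.30, the number lower being 5 without KD_control replicate 1, 5 without KD_control replicate 2, 21 without mESC replicate 1 and 16 without mESC replicate 2. Mest, expressed from the paternal copy, had 13.8 and 13.9 FPKM in KD_control, against 153 and 89.0 FPKM in mESC (log2 fold change -2.99, SE 0.30, adjusted p = 0.00813). Grb10, a growth-restraining adaptor, had 15.2 and 15.1 FPKM in KD_control, against 2.11 and 2.13 FPKM in mESC (log2 fold change 2.37, SE 0.14, adjusted p = 0.0074). Nnat, a paternally expressed membrane protein gene, had 40.7 and 37.7 FPKM in KD_control, against 7.37 and 9.02 FPKM in mESC (log2 fold change 2.13, SE 0.16, adjusted p = 0.0074). H19 and Peg10 were not called, with log2 fold changes of 0.64 and -0.63.

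Many SR protein and hnRNP genes were lower. The list of SR proteins, which bind splicing enhancers, with their kinases and cofactors had a median of -0.96; it was -0.90 against mESC replicate 1 and -0.90 against mESC replicate 2. Of 26 members 13 were lower and 2 higher; the number lower was 8 without KD_control replicate 1, 6 without KD_control replicate 2, 16 without mESC replicate 1 and 18 without mESC replicate 2. Srsf2 had 75.0 and 77.8 FPKM in KD_control, against 478 and 447 FPKM in mESC (log2 fold change -2.58, SE 0.15, adjusted p = 0.0074). Srsf10 had 19.9 and 21.6 FPKM in KD_control, against 112 and 71.8 FPKM in mESC (log2 fold change -2.06, SE 0.25, adjusted p = 0.0101). The kinase gene Clk3 was higher instead, at 31.2 and 30.1 FPKM in KD_control against 11.9 and 15.8 FPKM in mESC (log2 fold change 1.11, SE 0.19, adjusted p = 0.0172; adjusted p 0.135 without KD_control replicate 1 and 0.118 without KD_control replicate 2). Of 30 hnRNP, PTB and FET genes 14 were lower and 2 higher, with a median of -0.59; the number lower was 6 without KD_control replicate 1, 5 without KD_control replicate 2, 21 without mESC replicate 1 and 17 without mESC replicate 2. Among them, the neural splicing repressor Ptbp2 had 1.76 and 1.68 FPKM in KD_control, against 13.1 and 7.82 FPKM in mESC (log2 fold change -2.04, SE 0.27, adjusted p = 0.0111), while Hnrnpc was higher at 266 and 271 FPKM in KD_control against 175 and 175 FPKM in mESC (log2 fold change 0.62, SE 0.15, adjusted p = 0.0339). That call ended under median-ratio and common-sum scaling and with the length trend removed, and its adjusted p was 0.471 without KD_control replicate 1 and 0.489 without KD_control replicate 2. The core spliceosome had a median of -0.09, with 7 of 45 lower and 1 higher. After median-ratio scaling 10 were lower and 0 higher, and with the length trend removed 15 were lower and 0 higher (median -0.35). With the deposited values the median was 0.07 against mESC replicate 1 and -0.26 against mESC replicate 2.

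The list of RNA regulators with Lin28, Trim71 and L1td1 had a median of -0.44 over 15 tested members. In that list 5 were lower (33.3%), 1 was higher (6.67%) and 9 were not called, beside 14.5% lower and 26.8% higher of all genes. L1td1, an RNA-binding protein derived from a LINE-1 element and restricted to pluripotent cells (chr4:98726754-98738486), had 26.3 and 25.9 FPKM in KD_control, against 234 and 225 FPKM in mESC (log2 fold change -3.09, SE 0.13, adjusted p = 0.0074). Igf2bp3, which binds messages with LIN28, had 7.33 and 7.57 FPKM in KD_control, against 41.7 and 32.4 FPKM in mESC (log2 fold change -2.16, SE 0.18, adjusted p = 0.0075). The chromatin protein gene Hmga2, a let-7 target, had 1.25 and 1.39 FPKM in KD_control, against 15.6 and 10.4 FPKM in mESC (log2 fold change -2.57, SE 0.23, adjusted p = 0.00772). Lin28a itself was only slightly lower, at 52.6 and 52.0 FPKM in KD_control against 73.1 and 90.6 FPKM in mESC (log2 fold change -0.63, SE 0.17, adjusted p = 0.0452; adjusted p 0.41 without KD_control replicate 1 and 0.426 without KD_control replicate 2). The groups did not overlap in any of the 4, as in 79.8% of all genes tested. The methionine adenosyltransferase gene Mat2a, which makes S-adenosylmethionine, had 24.0 and 25.1 FPKM in KD_control, against 324 and 188 FPKM in mESC (log2 fold change -3.28, SE 0.30, adjusted p = 0.00772). The chromatin remodeller gene Smarcad1 had 6.10 and 6.07 FPKM in KD_control, against 103 and 43.7 FPKM in mESC (log2 fold change -3.26, SE 0.44, adjusted p = 0.0114).

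Myc and several growth genes under it were lower. Of 28 Myc family and nucleolar genes, 12 were lower and 1 higher, with a median of -0.64; after median-ratio scaling 18 were lower, and the number lower was 4 without KD_control replicate 1, 4 without KD_control replicate 2, 21 without mESC replicate 1 and 20 without mESC replicate 2. Myc had 2.37 and 2.22 FPKM in KD_control, against 16.7 and 16 FPKM in mESC (log2 fold change -2.40, SE 0.14, adjusted p = 0.0074). Mycn, the more abundant family member here, had 18.3 and 17.8 FPKM in KD_control, against 40.1 and 43.1 FPKM in mESC (log2 fold change -1.16, SE 0.13, adjusted p = 0.00962; adjusted p 0.0933 without KD_control replicate 1 and 0.104 without KD_control replicate 2). Nucleolin (Ncl) had 65.4 and 68.1 FPKM in KD_control, against 207 and 227 FPKM in mESC (log2 fold change -1.69, SE 0.15, adjusted p = 0.00772). The nucleolar GTPase gene Gnl3 had 34.2 and 36.4 FPKM in KD_control, against 135 and 105 FPKM in mESC (log2 fold change -1.72, SE 0.18, adjusted p = 0.00892). The KD_control libraries were below the mESC libraries in all 4, as in 31.4% of all genes. Of cytosolic ribosomal proteins, 2 of 78 were higher and 1 lower, with a median of 0.25, close to that of all genes. With the length trend removed 1 was higher and 10 were lower. The sign of the median turned with the mESC library: it was 0.63 against mESC replicate 1 and -0.08 against mESC replicate 2.

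Of 29 p53 targets, 13 were higher and 2 lower, with a median of 0.29; the number higher was 7 without KD_control replicate 1, 8 without KD_control replicate 2, 17 without mESC replicate 1 and 18 without mESC replicate 2. Gdf15, a secreted stress signal that ATF4 and CHOP also induce, had 31.0 and 26.4 FPKM in KD_control, against 4.67 and 7.05 FPKM in mESC (log2 fold change 2.13, SE 0.23, adjusted p = 0.00894). Pmaip1, which encodes the pro-death protein NOXA, had 60.6 and 61.9 FPKM in KD_control, against 12 and 15.8 FPKM in mESC (log2 fold change 2.08, SE 0.18, adjusted p = 0.00772). Cdkn1a, the cell-cycle inhibitor p21, rose less (61.8 and 65.1 FPKM in KD_control against 29.2 and 37.3 FPKM in mESC; log2 fold change 0.92, SE 0.18, adjusted p = 0.0221; adjusted p 0.181 without KD_control replicate 1 and 0.223 without KD_control replicate 2), and Trp53 was not called (128 and 128 FPKM in KD_control against 175 and 238 FPKM in mESC). Cdkn2a, the Ink4a/Arf gene that accumulates in long culture of many cell types, had 2.29 and 1.99 FPKM in KD_control, against 14.3 and 23.6 FPKM in mESC (log2 fold change -2.63, SE 0.27, adjusted p = 0.00869). Repair genes went both ways: of 37 homologous recombination genes 5 were higher and 9 lower (1 and 3 without either KD_control library), among them Brca2 with 3.46 and 3.58 FPKM in KD_control, against 14.3 and 10.9 FPKM in mESC (log2 fold change -1.58). Polh, a translesion polymerase that p53 induces, had 19.3 and 17.0 FPKM in KD_control, against 4.96 and 6.07 FPKM in mESC (log2 fold change 1.56), whereas Rev1 and Polq were not called, with log2 fold changes of -0.47 and -0.31.

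Antigen presentation and interferon genes went both ways. Of 20 tested, 7 were higher and 6 lower (35% and 30%, beside 26.8% and 14.5% of all genes). Those higher included the class I genes H2-K1, with 68.8 and 66.2 FPKM in KD_control, against 8.99 and 12.9 FPKM in mESC (log2 fold change 2.54, SE 0.21, adjusted p = 0.00749), and H2-Q4, with 16.5 and 18.9 FPKM in KD_control, against 0.515 and 1.41 FPKM in mESC (log2 fold change 3.29, SE 0.27, adjusted p = 0.0075), as well as the peptide transporter Tap1 (log2 fold change 1.38). Class I genes are a family of close copies that vary between strains, and the sources used here do not say how reads were shared among them. Those lower included the RNA sensor gene Ddx58, with 0.922 and 1.04 FPKM in KD_control, against 6.79 and 7.92 FPKM in mESC (log2 fold change -2.07, SE 0.15, adjusted p = 0.0074), and Ifitm1, with 16.3 and 14.7 FPKM in KD_control, against 64.8 and 58.3 FPKM in mESC (log2 fold change -1.92, SE 0.15, adjusted p = 0.0074). Ly6a, which encodes SCA-1 and whose level also differs between mouse strains, was near 0, with 0.411 and 0.663 FPKM in KD_control, against 25.4 and 28.7 FPKM in mESC (log2 fold change -4.19, SE 0.17, adjusted p = 0.0074). Of 12 fibroblast and feeder genes tested, 6 were higher and 2 lower, with a median of 1.11 that covers only those past the minimum level. The receptor Pdgfrb had 7.89 and 7.60 FPKM in KD_control, against 0.636 and 1.09 FPKM in mESC (log2 fold change 2.24, SE 0.18, adjusted p = 0.0074) and the protease Mmp2 had 13.5 and 11.7 FPKM in KD_control, against 3.01 and 2.70 FPKM in mESC (log2 fold change 1.82, SE 0.16, adjusted p = 0.00763), while Vim, the mesenchymal filament, was lower at 73.1 and 72.7 FPKM in KD_control against 196 and 155 FPKM in mESC (log2 fold change -1.25, SE 0.18, adjusted p = 0.0127; adjusted p 0.0988 without KD_control replicate 1 and 0.101 without KD_control replicate 2). Of the 31 autosomal genes of that list, 19 were below the level needed for testing. Whether feeder cells had a part in these values was not tested; Col3a1, at 507 and 452 FPKM in MEF, was at or under 0.00493 FPKM in all 4 libraries.

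Genes of chromosome 8 were lower than those of any other autosome. The median over its 692 tested genes was -0.23, against 0.01 to 0.43 on the other 18 autosomes and 0.21 over all genes. On chromosome 8, 27.6% of genes were called lower, while the share was 9.75% to 19.5% on the others; 14.6% were called higher, beside 26.8% of all genes. Relative to the median of all genes the difference was -0.38 against mESC replicate 1 and -0.44 against mESC replicate 2, and -0.46 after median-ratio scaling. Without that subtraction the median was -0.32 with mESC replicate 1 left out and -0.08 with mESC replicate 2 left out. It held along the chromosome: in 4 consecutive stretches of equal gene number, the medians were -0.32, -0.31, -0.09 and -0.29. The level of chromosome 8 in single libraries, taken as the median deviation of its genes from their mean over 6 stem cell libraries and set against all genes, was -0.14 and -0.14 in KD_control, -0.12 and -0.12 in Dppa5a_KD, and 0.25 and 0.28 in mESC. The 4 libraries of the knockdown experiment thus lay together and below both mESC libraries. Zfp42 lies there, as do Smarca5, a chromatin remodeller gene with 29.5 and 29.7 FPKM in KD_control, against 131 and 103 FPKM in mESC (log2 fold change -1.93), and Heatr3, a ribosome-assembly gene with 9.39 and 9.46 FPKM in KD_control, against 70.3 and 63.1 FPKM in mESC (log2 fold change -2.70). Higher genes lie there too, among them Mef2b, Gdf15 and Mmp2, with log2 fold changes of 4.81, 2.13 and 1.82. Of the 692 genes, 101 were called higher and 191 lower. All the single genes named here changed by far more than the median of the chromosome. DNA copy number was not measured here.

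**Figure D5:**
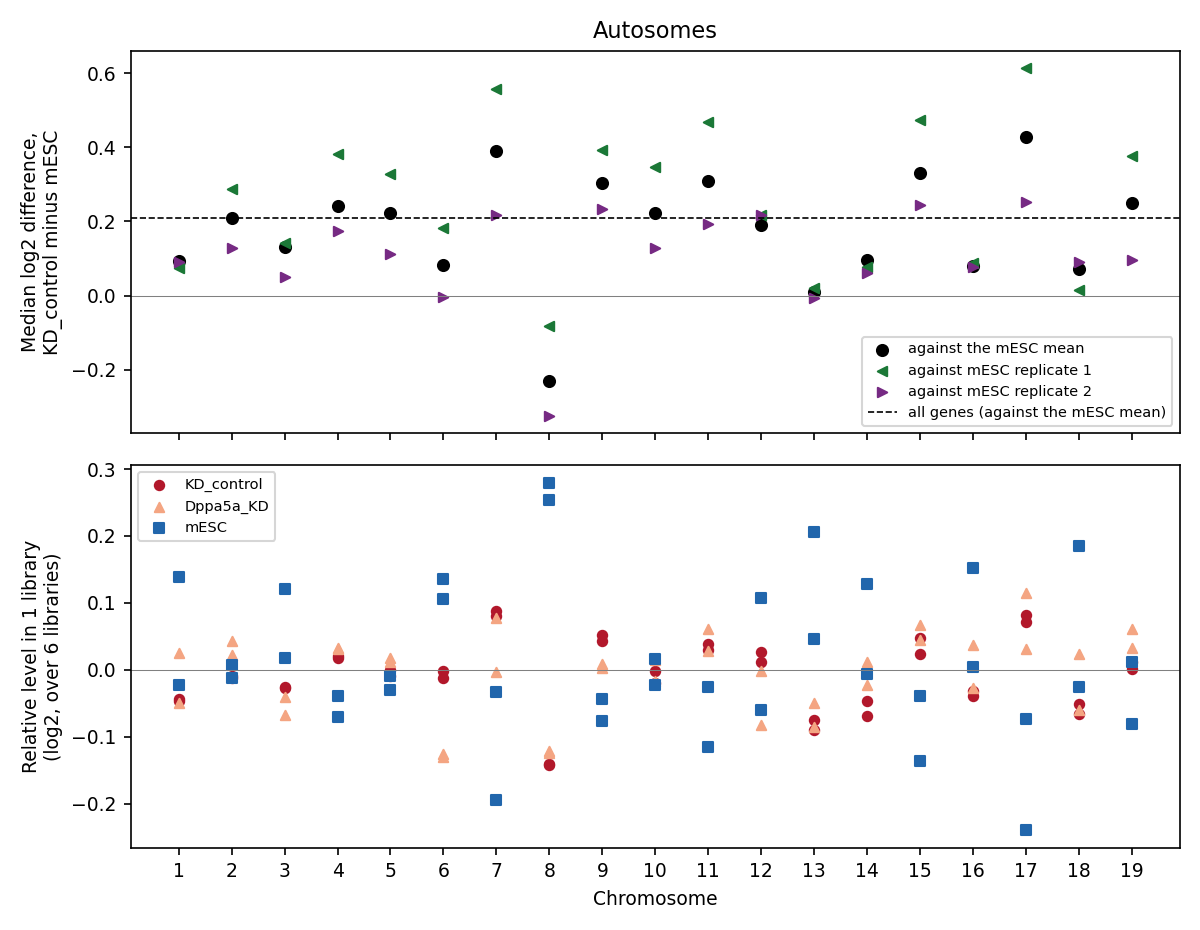
Upper panel, median log2 difference of the tested genes of each autosome, KD_control minus the mESC mean (dots) or minus 1 mESC library (triangles), with the all-gene median dashed; lower panel, the relative level of each autosome in each of 6 libraries. Chromosome 8 has the lowest median in the upper panel, and in the lower panel its 2 mESC values stand above the 4 others.

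The difference also followed transcript length. Genes were cut into 10 classes of equal size by a length estimated from the deposited confidence bounds. The median log2 fold change was 0.40 in the class of shortest transcripts (median 0.61 kb) and -0.01 in that of longest (median 9.34 kb). The mESC libraries differed from each other along the same axis: mESC replicate 1 minus mESC replicate 2 was -0.53 in the shortest class and 0.17 in the longest. Between the KD_control libraries these values were -0.01 and 0.00. With the trend removed, the calls were 2766 higher and 2662 lower. The median of the stress-response list was 1.86, of the hypoxia list 1.32, of the SR protein list -1.23 and of chromosome 8 -0.45, against -0.02 over all genes. The difference followed level too. In 10 classes by mean FPKM over the 4 libraries, the median log2 fold change was 0.55 in the lowest, 0.06 in the ninth and 0.18 in the highest. The all-gene median of 0.21 thus lies below that of the genes with the lowest levels.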

How the data were processed

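Gene-level FPKM of 8 RNA-seq libraries were used, 2 each of KD_control, mESC, Dppa5a_KD and MEF; the RNA immunoprecipitation libraries were not analysed here. Per the labels, libraries came from Trizol RNA with a NEBNext Ultra kit, and no source states a stranded protocol, so reads of antisense or overlapping neighbours may be shared. The authors deposited FPKM per gene with confidence bounds, per the file headers. Per the submitters' processing notes the tools were HTSeq 0.6.1, Cuffdiff 2.1.1, Cufflinks 2.1.1, TopHat2 2.0.8 and CASAVA 2.19 on mm10, with no roles given. Coordinates are those of the deposited tables.

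Loci of 1 symbol were summed (280 symbols), and 1 failed gene and 1104 symbols of chromosomes X and Y were left out. FPKM summed to 567415 and 571975 in KD_control, and to 447684 and 558132 in mESC. As FPKM carry no depth, log2(FPKM + 1) of the 4 libraries was fitted with limma 3.58.1 (trend, R 4.3.3, 2-sided), with Benjamini-Hochberg adjustment over all genes tested. In data simulated over 12135 genes, of which 200 were changed, 13% of 2-fold and 89% of 4-fold changes were recovered, and 6.42% of the 109 calls were false. The simulation gave both groups the same spread and changed far fewer genes than the comparison called. The real pairs differ in spread, so these rates do not describe the real calls. Replicates differed by more than the confidence bounds allow (chi-square per degree of freedom 2.74 in KD_control and 232 in mESC), so none was counted as the same library.

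The comparison, its members and the 48 gene lists were chosen with earlier results of these data known. Lists are described by counts and medians beside all genes. Named genes are 44 anchors, up to 12 called genes with the largest change each way at 10 FPKM or more without overlap, up to 5 called members of each list, and genes on in 1 group only. Named after their values were seen were Aars, Ankrd37, Anxa2, Atf5, Cebpb, Cebpg, Clk3, Col3a1, Cth, Dusp6, Eif4ebp1, Fasn, Fgf4, Gapdh, Gars, Gata4, Gm8909, Heatr3, Hif1a, Hk2, Hnrnpc, Ifitm1, Kdm3a, Klf2, Ldhb, Nnat, Pck2, Pdk1, Phgdh, Ppp1r15a, Psph, Pycr1, Sesn2, Smarca5, Socs3, Tap1, Thy1 and Vldlr. Promoters are the 250 bases before the start in the RefSeq table.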

Additional observations from a re-analysis of the deposited data

How the results depend on the processing

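With 2 libraries a group each call rests on the spread of 1 or both pairs, and the mESC pair is the looser. A test against a 1.5-fold change called 1127 genes, 831 higher and 296 lower. Leaving out 1 library in turn gave 2021 to 10488 calls, 1532 to 6552 higher and 489 to 4147 lower. With all 8 libraries in the fit and mESC replicate 2 left out, chosen after seeing the data, 7681 genes were called, 4937 higher and 2744 lower. A minimum of 5 FPKM gave 2028 higher, and removing the trend with length, also chosen after seeing the data, gave 2662 lower. The cause was not tested. The median of chromosome 8 moved to -0.48 under median-ratio scaling and to -0.45 with the length trend removed, and ran from -0.32 to -0.08 with 1 library left out. With 2 FPKM in place of 5 as the upper level, 21 genes were on in KD_control and 1 in mESC. With 0.5 FPKM in place of 0.1 as the lower level the numbers were 17 and 3. Replicate numbers did not pair the libraries (r = 0.062 between the replicate differences of the groups, across genes); a replicate block gave 5719 calls, 3718 higher and 2001 lower.

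Of the 119 called genes that the text or the figures name, a part of those the naming rule chose together with those chosen after their values were seen, 44 lost the call in at least 1 of 18 settings, 24 of them without a KD_control library, and 0 changed sign. Genes not called did change sign. Gata6 was at 0.013 without mESC replicate 1 and -0.28 without mESC replicate 2; Sparc was at -0.39 and 0.17, Klf2 at -1.33 and 0.54, Ppp1r15a at -0.085 and 1.16, Sox2 at -0.31 and 0.78, and Tfcp2l1 at 0.39 and -0.13 in the same order, with or without the other libraries in the fit. The Sox2 log2 fold change was -0.0092 after median-ratio scaling. The Tfcp2l1 log2 fold change was -0.11 after it, -0.053 with libraries rescaled to a common sum, and -0.035 with the 10 most abundant genes left out of that sum.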
